A study of Mus musculus with 13 samples.

Results

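The 9 genes described here encode proteins that act in making, carrying and breaking down retinoic acid: *Aldh1a1*, *Aldh1a2*, *Aldh1a3*, *Rdh10*, *Rdh11*, *Cyp26b1*, *Cyp26a1*, *Stra6* and *Crabp2*. Their RNA was measured in preparations enriched for Sertoli cells of adult mice. The 9 genes were picked by name, with earlier results of these data known. All 9 were found among the 27111 features with a gene name in the count table. Sertoli cells, the somatic support cells of the seminiferous tubules, were enriched by FACS from testes of C57Bl/6J males aged 3 to 5 months, as large diploid cells with a strong MitoTracker signal. In the MSUS group, exposed to maternal separation and maternal stress at unpredictable times, pups were taken from the dam for 3 h a day, at unpredictable times, from PND 1 to 14. During these hours the dam was exposed to a swim of 5 min in water of 18 °C or to restraint for 20 min. Males of the control group had neither separation nor maternal stress. RNA of 6 control and 7 MSUS males was sequenced, 1 library per male, and no gene was altered in either group.

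Retinol, or vitamin A, circulates bound to a carrier protein and enters cells through the receptor STRA6. Inside the cell it is oxidized to retinal by retinol dehydrogenases such as RDH10, and retinal is oxidized irreversibly to retinoic acid by the ALDH1A enzymes, while retinal reductases such as RDH11 turn retinal back into retinol and the CYP26 enzymes degrade retinoic acid. Retinoic acid binds nuclear receptors and is needed in the testis for the differentiation of spermatogonia and for entry into meiosis. ALDH1A1 is known as the ALDH1A enzyme of Sertoli cells, ALDH1A2 as that of meiotic germ cells, and CYP26B1 as the enzyme that keeps germ cells of the fetal testis out of meiosis.

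Libraries held 12701776 to 18649945 estimated counts, of which 9776929 to 14383458 were on named genes. Levels are given as log2 CPM (CPM, the count of a gene relative to all counts on named genes, scaled after TMM normalization), and, where genes are compared with each other, as log2 CPM per kb of exon. The 5 Sertoli cell markers *Amhr2*, *Clu*, *Ctsl*, *Rhox5* and *Sox9* averaged 10.18 ± 0.10 (SD, n = 6) in controls and 10.14 ± 0.10 (n = 7) in MSUS samples on the log2 CPM scale. Germ cell transcripts were present as well. The 4 elongated spermatid markers averaged 7.90 ± 0.23 and 8.09 ± 0.46 in the same order, and the 5 spermatocyte markers 5.04 ± 0.13 and 4.91 ± 0.43. None of the 10 marker lists differed between groups after adjustment (exact permutation tests, two-sided, smallest adjusted p = 0.297). The sample of MSUS animal 1 stood apart for the genes described here: it held the highest or the lowest of all 13 values for 5 of the 8 genes that could be tested, and it had the lowest spermatocyte marker mean (4.10, against 4.70 to 5.44 in the other MSUS samples). Results are therefore also given without it where they rest on it.

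All 9 genes were detected, but at very different levels (plot of levels by sample). In control samples *Aldh1a1* stood highest with 6.75 ± 0.12 log2 CPM per kb (SD, n = 6), above 97.9% of the tested genes with a gene model. *Aldh1a2* followed with 4.54 ± 0.18, above 85.2% of genes. Then came *Rdh11* (3.43 ± 0.16), *Cyp26b1* (3.01 ± 0.21), *Cyp26a1* (2.63 ± 0.24) and *Stra6* (2.48 ± 0.26), which lay above 69.3%, 61.8%, 54.9% and 52.2% of genes. *Aldh1a3* (1.88 ± 0.12) and *Rdh10* (1.51 ± 0.18) were below the median tested gene, and *Crabp2* was near the detection limit. The mRNA of the most abundant retinal-oxidizing enzyme was far above that of the retinol-oxidizing enzyme *Rdh10* on the per-kb scale, by 5.24 ± 0.12 on the log2 scale within control samples.

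**Figure D1:**
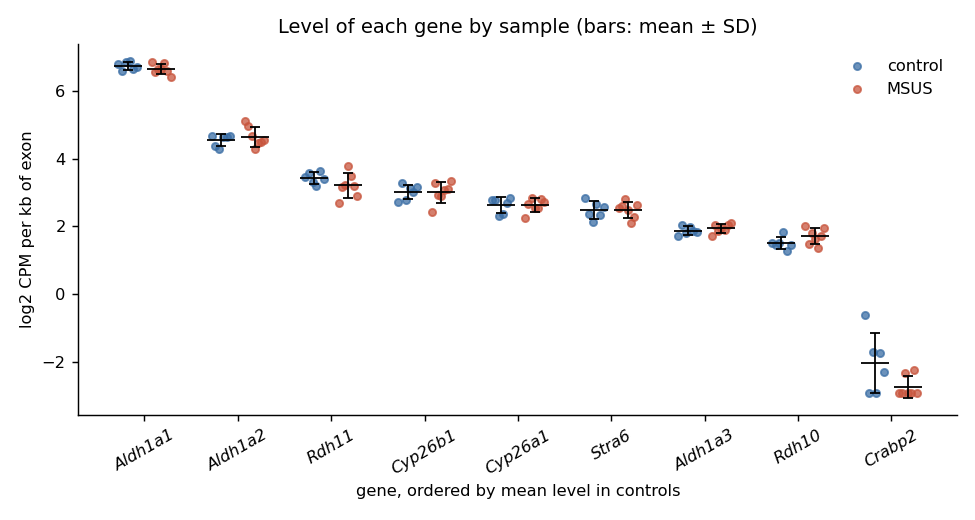
Level of each of the 9 genes in log2 CPM per kb of exon (vertical axis), with 1 point per sample and control in blue and MSUS in red; black marks are group means and bars are SD. *Aldh1a1* lies at 6.75 in controls, *Rdh10* at 1.51, and the groups overlap for every gene, *Crabp2* (0 to 8 counts per sample) included.

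Neighbours in this order were compared within control samples by an exact paired permutation test (sign flips, two-sided), adjusted over the 7 pairs. The pairs were formed from the same means, so their direction is given by the ordering. The p-values therefore describe how steady a difference was across samples and are no independent test of the order. *Aldh1a1* exceeded *Aldh1a2* by 2.20 ± 0.21 on the log2 scale per kb, and *Aldh1a2* exceeded *Rdh11* by 1.11 ± 0.24. *Rdh11* exceeded *Cyp26b1* by 0.42 ± 0.26, *Stra6* exceeded *Aldh1a3* by 0.60 ± 0.31, and *Aldh1a3* exceeded *Rdh10* by 0.37 ± 0.19. Each of these 5 differences had the same sign in 6 of 6 samples, which gives p = 0.0312 in the exact test, the smallest that 6 samples allow, and an adjusted p of 0.0438. *Cyp26b1* exceeded *Cyp26a1* by 0.38 ± 0.27 and was higher in 5 of 6 samples (exact p = 0.0625, adjusted p = 0.0729). *Cyp26a1* exceeded *Stra6* by 0.15 ± 0.27 and was higher in 4 of 6 (exact p = 0.25). Neither pair reached an adjusted p under 0.05 with these 6 samples. The place of *Stra6* depends on the length used: with the longest transcript in place of all exons it moved from 2.48 to 3.41, between *Rdh11* and *Cyp26b1*, and *Aldh1a1* moved up to 7.81. The comparison of *Cyp26b1* with *Cyp26a1* depends on it too. With the longest transcript *Cyp26b1* was higher by 0.49 ± 0.27, in 6 of 6 samples (exact p = 0.0312, adjusted p = 0.0438).

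Among the ALDH1A genes, which encode the enzymes for the last step of synthesis, *Aldh1a1* (chr19:20492715-20643465, GRCm38, plus strand) had 4420 to 7313 counts per sample. Its level in controls ran from 8.90 to 9.19 log2 CPM with a median of 9.06, and in MSUS samples from 8.71 to 9.15 with a median of 8.94. The groups overlapped, with 3 of 7 MSUS samples below every control. The difference, MSUS minus control, was -0.10 ± 0.072 on the log2 scale (SE; 95% interval -0.25 to 0.05; limma voom adjusted p = 0.884, exact permutation p = 0.189). Salmon split reads between *Aldh1a1* and its close relative *Aldh1a7*: the fractional parts of both estimates add up to whole numbers in the 13 samples, within 0.005. *Aldh1a1* held 94.98% ± 0.51 of the counts of both genes in controls and 94.99% ± 0.48 in MSUS samples, and with the *Aldh1a7* counts added the difference was -0.10. The gene also overlaps *C730002L08Rik* and the pseudogene *Gm6684* on the opposite strand, and whether strand was used in counting is not given in the sources used here.

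*Aldh1a2* (chr9:71215789-71296243, plus strand) ranged from 5.45 to 5.85 log2 CPM in controls, median 5.82, and from 5.46 to 6.28 in MSUS samples, median 5.73. The 2 MSUS samples above every control were animals 1 and 5, with 6.28 and 6.15, and the other 5 lay within the control range. The log2 difference was 0.12 ± 0.12 (SE; 95% interval -0.14 to 0.37; limma voom adjusted p = 0.916, exact permutation p = 0.478), and 0.04 without MSUS animal 1. A pseudogene, *Gm48124*, overlaps it on the opposite strand.

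*Aldh1a3* (chr7:66390890-66427517, minus strand) was the least abundant of the ALDH1A genes, at 3.93 to 4.26 log2 CPM in controls (median 4.06) and 3.94 to 4.31 in MSUS samples (median 4.15). It varied little in either group, and its log2 difference of 0.07 ± 0.096 (SE; 95% interval -0.13 to 0.27) did not pass the test (limma voom adjusted p = 0.937, exact permutation p = 0.351). Its estimates were fractional in 12 samples, with no single partner gene found. At 168 to 277 counts per sample, counting error alone (Poisson) would give it an SD of 0.10 on the log2 scale, against observed SDs of 0.12 in controls and 0.13 in MSUS samples.

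Within each sample the share of the ALDH1A genes was taken from CPM per kb. *Aldh1a1* made up 79.9% ± 2.0 of *Aldh1a1*, *Aldh1a2* and *Aldh1a3* together in controls (range 78.0% to 83.6%) and 77.4% ± 3.2 in MSUS samples (72.8% to 81.6%). The groups overlap widely, and *Aldh1a1* was the main ALDH1A transcript in all 13 samples. These shares use the length of all exons and depend on it. With the longest transcript, the control level of *Aldh1a1* moved from 6.75 to 7.81 log2 CPM per kb, while that of *Aldh1a2* stayed at 4.54.

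**Figure D2:**
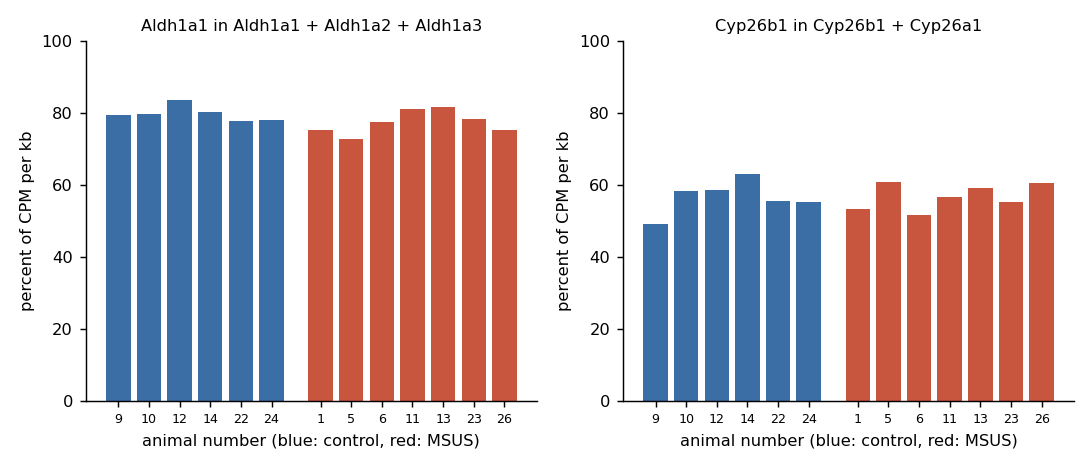
Share of *Aldh1a1* in the CPM per kb of the 3 ALDH1A genes (left) and of *Cyp26b1* in that of *Cyp26b1* and *Cyp26a1* (right), in percent, 1 bar per animal, control in blue and MSUS in red. *Aldh1a1* held 72.8% to 83.6% in every animal, and *Cyp26b1* held 49.3% to 63.2%.

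*Rdh10* and *Rdh11*, whose enzymes interconvert retinol and retinal, differed in opposite directions, without passing the test. Of the 7 other tested genes listed here under retinol oxidation, 3 were higher and 4 lower in MSUS samples. Of the 2 other tested genes listed under retinal reduction, 0 were higher and 2 lower. These roles are those of the list, and the direction in which the enzymes work was not measured. *Rdh10* (chr1:16105774-16133734, plus strand), which oxidizes retinol to retinal, ranged from 3.33 to 3.89 log2 CPM in controls, median 3.54, and from 3.43 to 4.08 in MSUS samples, median 3.76. Above every control were 2 MSUS samples, and 5 of 7 lay above the control mean. The log2 difference was 0.23 ± 0.13 (SE; 95% interval -0.04 to 0.51; limma voom adjusted p = 0.878, exact permutation p = 0.114). It passed an unadjusted p under 0.05 in limma voom without MSUS animal 13 (0.29, adjusted p = 0.670) and without control animal 14 (0.29, adjusted p = 0.927). In these fits 7.15% and 4.69% of all genes passed. Without MSUS animal 1 the difference was 0.18.

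*Rdh11* (chr12:79174337-79192293, minus strand), a retinal reductase, ranged from 4.98 to 5.43 log2 CPM in controls, median 5.22, and from 4.47 to 5.58 in MSUS samples, median 4.99. MSUS samples were more spread (SD 0.36 against 0.16), with 3 of 7 below every control and 1 above. The log2 difference was -0.23 ± 0.14 (SE; 95% interval -0.52 to 0.06; limma voom adjusted p = 0.878, exact permutation p = 0.202). A single sample decided its side of the threshold: without MSUS animal 11 it was -0.33, with an unadjusted p under 0.05 (limma voom adjusted p = 0.666), while without MSUS animal 1 it was -0.14. Without MSUS animal 11, 7.35% of all genes passed p under 0.05. Per kb, *Rdh11* exceeded *Rdh10* by 1.92 ± 0.34 on the log2 scale in controls and by 1.498 ± 0.56 in MSUS samples. Of this pair, the reductase transcript was the more abundant in every sample (lowest difference 0.65). This holds for the pair only, and no total over oxidizing or reducing enzymes was taken. *Rdh14*, which the pathway list used here places under retinol oxidation, stood at 3.80 log2 CPM per kb in controls, against 3.43 for *Rdh11*. The direction in which its enzyme works was not measured.

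For the breakdown enzymes the group means were close, and both genes had their lowest value in MSUS animal 1. *Cyp26b1* (chr6:84571414-84593908, minus strand) ranged from 5.15 to 5.69 log2 CPM in controls, median 5.49, and from 4.84 to 5.75 in MSUS samples, median 5.49. The group medians coincide. The log2 difference was -0.0023 ± 0.13 (SE; 95% interval -0.28 to 0.27; limma voom adjusted p = 0.998, exact permutation p = 0.970). Without MSUS animal 1 it was 0.10. *Cyp26a1* (chr19:37697798-37701536, plus strand) ranged from 3.29 to 3.84 log2 CPM in controls, median 3.73, and from 3.23 to 3.83 in MSUS samples, median 3.66. Its log2 difference was -0.01 ± 0.13 (SE; 95% interval -0.29 to 0.27; limma voom adjusted p = 0.989, exact permutation p = 0.949), and 0.06 without MSUS animal 1. *Cyp26b1* made up 56.8% ± 4.6 of the CPM per kb of both genes in controls and 56.8% ± 3.6 in MSUS samples, and the third family member, *Cyp26c1*, had 0 to 1 counts per sample. Per kb, *Aldh1a1* stood above *Cyp26b1* by 3.73 ± 0.29 on the log2 scale in controls and by 3.63 ± 0.43 in MSUS samples.

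*Cyp26a1* is known to be induced by retinoic acid through elements in its promoter, so the promoters are shown here to place this readout. The windows of RefSeq (GRCm38.p6) that reach from 250 bases before the start of a gene to 50 after it were searched on both strands for half-sites of 6 bases (AGGTCA, its variant AGTTCA, likewise GGGTCA and lastly GGTTCA), repeated in the same direction with 5 bases between them. No other motif was searched. Of 32851 windows, 32 held such a repeat (0.0974%). Of the 9 genes, 6 had a window and 1, *Cyp26a1*, held the repeat, on the reverse strand, from 32 to 16 bases before the start. Of the other 49 genes of the pathway, 37 had a window and 1, the receptor gene *Rarb*, held it, from 53 to 37 bases before the start. The 250 bases before each start (*Cyp26a1*, chr19:37697558-37697807, plus strand; *Rarb*, chr14:16575477-16575726, minus strand) read 5′ to 3′ along the gene as follows, with the repeat in capitals.

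Cyp26a1: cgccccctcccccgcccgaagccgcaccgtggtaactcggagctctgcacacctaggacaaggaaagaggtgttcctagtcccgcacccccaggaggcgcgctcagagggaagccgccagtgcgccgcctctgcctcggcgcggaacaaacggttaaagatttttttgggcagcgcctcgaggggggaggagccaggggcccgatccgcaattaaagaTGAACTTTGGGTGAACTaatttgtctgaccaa

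Rarb: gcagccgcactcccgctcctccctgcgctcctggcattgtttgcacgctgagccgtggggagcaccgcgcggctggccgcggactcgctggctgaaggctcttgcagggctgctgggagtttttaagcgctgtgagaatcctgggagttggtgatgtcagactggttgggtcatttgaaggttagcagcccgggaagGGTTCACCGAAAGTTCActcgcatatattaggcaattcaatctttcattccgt

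A matching sequence is not evidence that a receptor binds there. *Cyp26a1* had 100 to 197 counts per sample, whereas *Rarb* had 0 to 6. Of the 31 genes with the repeat, 14 were in the count table and 4 could be tested (*Cyp26a1*, *Blvrb*, *Cfap45* and *Gm1043*). None of these 4 passed p under 0.05 in limma voom, where 5.42% of all tested genes did, so 0 of 4 is little information. Their median log2 difference was -0.03.

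*Stra6* (chr9:58063788-58153996, plus strand), the membrane receptor for retinol uptake, ranged from 4.66 to 5.38 log2 CPM in controls, median 5.01, and from 4.64 to 5.36 in MSUS samples, median 5.07. The groups covered nearly the same range, and the log2 difference was 0.03 ± 0.12 (SE; 95% interval -0.23 to 0.29; limma voom adjusted p = 0.976, exact permutation p = 0.952). It overlaps *Ccdc33* on the opposite strand and *Gm16131* on the same strand, so some of its counts may belong to these. *Crabp2* (chr3:87948666-87953376, plus strand), which carries retinoic acid to its nuclear receptors, did not pass the count filter. Control samples had 8, 0, 3, 0, 3 and 1 counts (animals 9, 10, 12, 14, 22 and 24), and MSUS samples had 0, 0, 1, 0, 0, 1 and 0 (animals 1, 5, 6, 11, 13, 23 and 26). These are 17 counts in all, and a count of 0 allows a level of up to 0.206 to 0.303 CPM in the samples without counts (3 counts, counting error only). A difference in *Crabp2* was not tested at this depth.

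Taking the genes as a set, 8 of 9 were tested and 0 of 8 had p under 0.05 in limma voom, where 5.42% of the 14421 tested genes did (781 genes). At an adjusted p under 0.05, 0 of the 8 and 0% of all genes were called. edgeR's quasi-likelihood test and DESeq2 likewise gave 0 of the 8 genes with p under 0.05, against 793 and 835 of all genes. For 0 of the 8 genes were the groups free of overlap, against 0.139% of all genes. Levels were higher in MSUS samples for 4 genes and lower for 4, with a median log2 difference of 0.02. The 95% intervals of the 8 genes lie within 0.696-fold and 1.42-fold, which bounds the size of change that these samples leave possible; a p above the threshold does not show that the levels were equal. In such bulk samples, fewer cells of a type and less RNA per cell cannot be told apart.

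**Figure D3:**
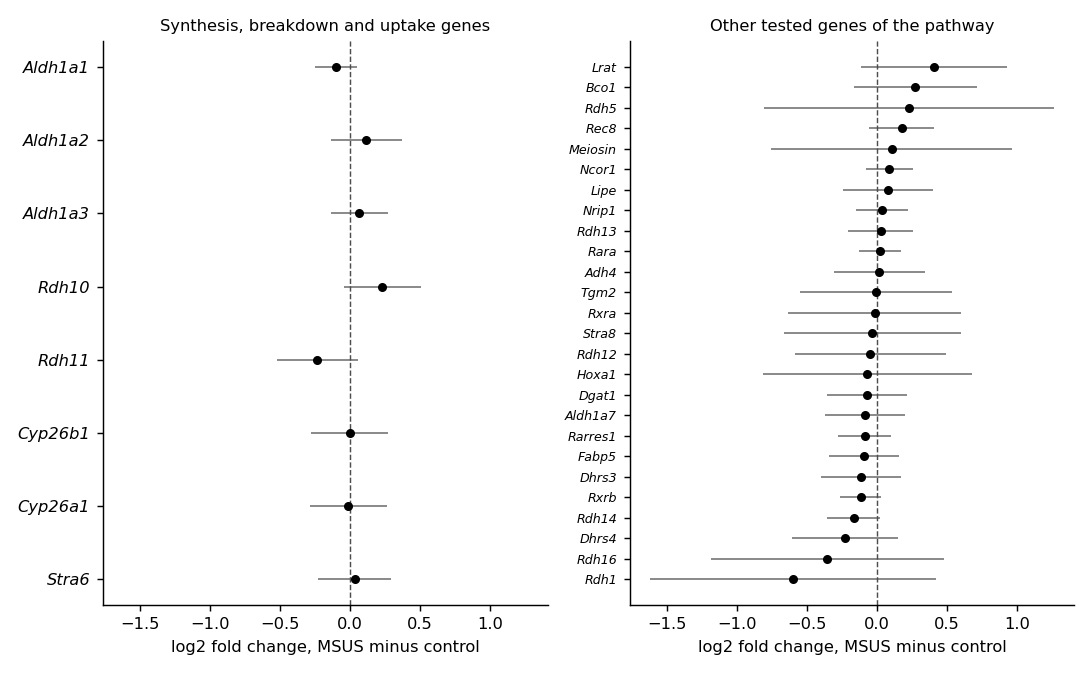
Log2 fold change, MSUS minus control, with its 95% interval (limma voom, 6 control and 7 MSUS samples), for the 8 tested synthesis, breakdown and uptake genes (left) and 26 of the other tested genes of the pathway (right). Every interval includes 0, and the largest differences at left are *Rdh10* (0.23) and *Rdh11* (-0.23).

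Of the other 49 genes of the pathway, 28 were tested and 0 had p under 0.05 in limma voom, against 5.42% of all tested genes. Levels were higher in MSUS samples for 13 and lower for 15, with a median log2 difference of -0.01. The nuclear receptor *Rara* was well expressed (7.51 ± 0.08 log2 CPM in controls, 7.53 ± 0.16 in MSUS samples), as was *Rxrb* (5.77 ± 0.12 and 5.65 ± 0.08), while *Rxra* was low (1.55 ± 0.52 and 1.55 ± 0.52) and *Rarb*, *Rarg* and *Rxrg* failed the count filter.

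Among the binding proteins, *Fabp5*, which binds retinoic acid and fatty acids, had 6.40 ± 0.25 log2 CPM in controls and 6.30 ± 0.25 in MSUS samples, far above *Crabp1*, the relative of *Crabp2*, which had 0 to 6 counts. Of the other genes listed here under retinol oxidation, *Rdh14* was the most abundant per kb, and 0 of 7 MSUS samples lay above its control mean (4.37 ± 0.11 and 4.203 ± 0.12 log2 CPM; log2 difference -0.16 ± 0.090, SE; limma voom adjusted p = 0.878). The exact permutation test of its log2 CPM gave p = 0.0286 and that of *Rxrb* p = 0.042, both unadjusted, while limma voom gave neither a p under 0.05. These were the lowest exact p-values among the 28 other pathway genes tested. The share of all genes that would pass the exact test was not computed. *Lrat*, which stores retinol as esters, was low, with 14 to 46 counts and 1.12 ± 0.35 and 1.51 ± 0.36 log2 CPM (log2 difference 0.41 ± 0.25, SE; limma voom adjusted p = 0.878). The response gene *Stra8*, which germ cells switch on before meiosis, had 8 to 25 counts, and *Rec8*, a meiotic cohesin gene, had 5.47 ± 0.22 and 5.63 ± 0.21 log2 CPM. Of 7 response genes, 6 were tested, 2 higher and 4 lower.

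*Aldh1a2* and *Rdh11* followed the spermatocyte markers between mice, in opposite directions. After adjustment this passed for Pearson's r and not for rho, the rank correlation. Over the 13 samples, with group means removed, 80 relations between the 8 tested genes and the 10 marker lists were examined by permutation tests of 100000 resamples. Of these, 3 had an adjusted p under 0.05 for Pearson's r. The share of all tested genes that follow these lists as strongly was not computed. The resamples mixed the samples of both groups, although MSUS samples were more spread in the spermatocyte marker mean (SD 0.43 against 0.13 in controls). *Aldh1a2* was lower where the spermatocyte markers were higher (r = -0.841, permutation adjusted p = 0.0052; rho = -0.808, adjusted p = 0.0528). The r was -0.747 without MSUS animal 1, -0.651 without the 2 samples farthest from the median of the marker mean, -0.448 within controls and -0.929 within MSUS samples.

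*Rdh11* went the other way and was higher where the spermatocyte markers were higher (r = 0.880, permutation adjusted p = 0.0056; rho = 0.742, adjusted p = 0.127). Here r was 0.832 without MSUS animal 1, 0.675 without the 2 farthest samples, 0.649 within controls and 0.914 within MSUS samples. The spermatocyte markers *Sycp1*, *Sycp3*, *Piwil1*, *Hormad1* and *Spag6* had at least 74 counts in every sample, 5 of 5 were tested, and their mean lay between 4.83 and 5.16 log2 CPM in controls and between 4.10 and 5.44 in MSUS samples. With this mean as a covariate, the log2 difference between groups was 0.03 for *Aldh1a2* and -0.11 for *Rdh11*, and neither passed p under 0.05 in limma voom. The third relation joined *Aldh1a1* to the lymphoid list (r = 0.874, rho = 0.901, permutation adjusted p = 0.0052 and 0.0048; 0.757 without the 2 farthest samples), but of its 4 genes *Cd3e*, *Cd52* and *Ccl5* had 0 to 8 counts and 1, *Il7r*, was tested.

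**Figure D4:**
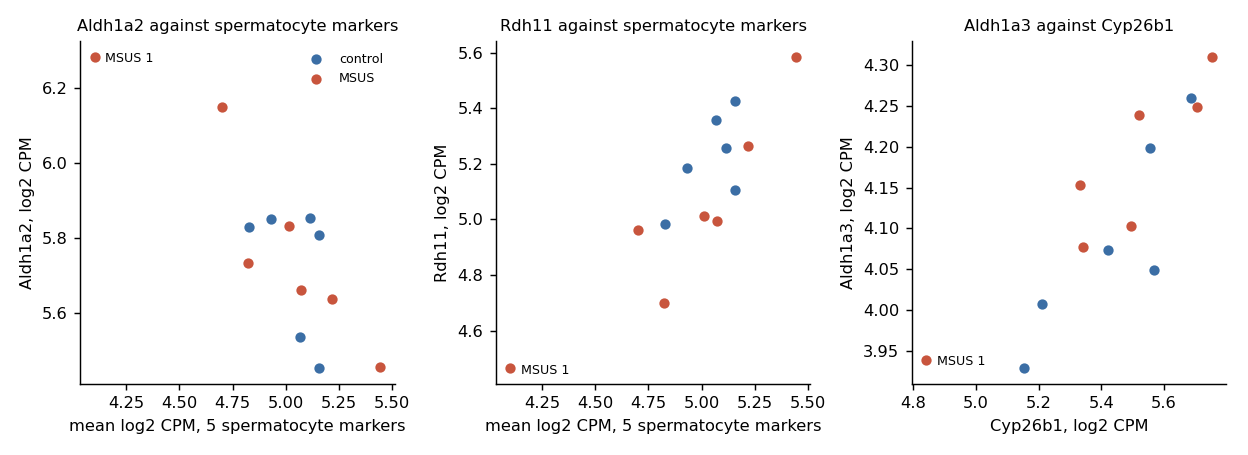
Log2 CPM of *Aldh1a2* (left) and *Rdh11* (middle) against the mean log2 CPM of 5 spermatocyte markers, and of *Aldh1a3* against *Cyp26b1* (right), 1 point per sample, control in blue and MSUS in red. *Aldh1a2* declines and *Rdh11* rises along the marker mean (r = -0.841 and 0.880), MSUS animal 1 lies at the low end of it, and *Aldh1a3* rises with *Cyp26b1* (r = 0.901).

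The genes were also compared with each other in the same way. Of 28 pairs, 6 had p under 0.05 and 1 had an adjusted p under 0.05 for Pearson's r. The share of pairs of other genes that would do so was not computed. *Aldh1a3*, for synthesis, and *Cyp26b1*, for breakdown, were high and low in the same mice (r = 0.901, permutation adjusted p = 0.00084; rho = 0.857, adjusted p = 0.00784). This held in both groups, with r = 0.879 within controls and 0.931 within MSUS samples, and r was 0.864 without MSUS animal 1 and 0.853 without the 2 samples farthest from the median of *Aldh1a3*. The observed SD of *Aldh1a3* is little above that from counting error, as given above, so the size of the r of this pair is uncertain. For *Cyp26b1* counting error would give SDs of 0.06 and 0.07, against 0.21 and 0.30 observed in controls and MSUS samples. Neither gene followed the depth of the library (r with log2 named counts of 0.026 and -0.0084, permutation p = 0.933 and 0.979). *Rdh10* and *Rdh11* were opposed (r = -0.726, permutation adjusted p = 0.0669; rho = -0.769, adjusted p = 0.0427). *Aldh1a1* was lower where *Cyp26a1*, *Cyp26b1* and *Aldh1a3* were higher (r = -0.700, -0.677 and -0.673), each with a permutation adjusted p of 0.0671 for r.

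Over the same 13 samples, the genes whose levels followed *Aldh1a1* most closely among 14420 tested genes were *Tpt1* (r = 0.946), *Aldh1a7* (r = 0.928), which shares reads with it, and *Qdpr* (r = 0.910). These are descriptions of shared variation between mice, with group means removed, and the values share library and normalization.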

How the data were processed

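Sertoli cell RNA of 6 control and 7 MSUS males (5 ng, stranded total RNA kit, 12 PCR cycles, single-end reads) was processed by the authors with Trim Galore 0.6.5 and Salmon 1.1.0 on GENCODE vM23 (GRCm38), and they deposited estimated counts per gene without normalization. How transcripts were summed to genes is not given in the sources used here. Estimated counts were rounded. Of 54281 features, 27170 without a gene name (20.7% to 26.7% of counts) were left out.

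Groups were compared with voom in limma 3.58.1 after TMM scaling and filterByExpr of edgeR 4.0.16 (R 4.3.3), with group as the only term and Benjamini-Hochberg adjustment over 14421 genes. The methods of the study give TMM and voom, and the filter and the group-only model were chosen here. A prior count of 2 was used for log2 CPM. Exon lengths and coordinates are from GENCODE vM21 (22921 of 27111 named features matched 1 gene model), promoter sequences from RefSeq. Alternatives were edgeR's quasi-likelihood test, DESeq2 1.42.0, sample weights, library size alone, other count filters, unnamed features kept, an elongated spermatid covariate, another gene length and leaving out each sample; those chosen after seeing the data were *Aldh1a7* counts added to *Aldh1a1* and spermatocyte or Sertoli covariates.

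The genes, pathway list and marker lists were chosen with earlier results of these data known. Every one of the 9 genes is named; pathway genes are named where among the highest per kb of a role, and *Lrat*, *Stra8*, *Crabp1*, *Cyp26c1*, *Rarb*, *Rarg* and *Rxrg* were named in addition. Replicate numbers are animal numbers, and p-values measure the spread between these males. Litter and cage were not analysed here, and some genes of the pathway are not reported here.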

Additional observations from a re-analysis of the deposited data

How the results depend on the processing

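For *Aldh1a1*, *Aldh1a2*, *Aldh1a3*, *Rdh10* and *Rdh11* the log2 difference kept its sign under all 24 alternatives. The differences of *Cyp26b1* and *Cyp26a1*, which are near 0, changed sign. *Cyp26b1* was 0.0168 with DESeq2, 0.0128 with edgeR's quasi-likelihood test, 0.00159 when 6 samples had to reach 1 CPM, 0.0482 with sample weights, 0.0554 with the elongated spermatid covariate and 0.0328 with the spermatocyte covariate. *Cyp26a1* was 0.0525, 0.0244 and 0.0237 under the last 3. Without single samples, *Cyp26b1* ran from -0.0544 to 0.1, *Cyp26a1* from -0.0826 to 0.0578 and *Stra6* from -0.039 to 0.109.

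Counts with p under 0.05 moved as follows. Of the 9 genes, 2 (*Rdh10* and *Rdh11*) passed with the Sertoli marker covariate (787 of all genes, 5.46%) and 1 (*Aldh1a1*, -0.14) with the elongated spermatid covariate (8.13% of all genes), and 0 to 1 passed without single samples. Of the other pathway genes, 2 passed, *Rec8* among them, with the elongated spermatid covariate, 3 low ones (*Bco2*, *Rxrg* and *Ttr*) without a count filter, and 0 to 2 without single samples. Of all genes, 1172 passed with that covariate, 1182 without a filter and 534 to 1121 without single samples, against 781. The fits without MSUS animal 11, MSUS animal 13 and control animal 14, in which 1 of the 9 genes passed, called 7.35%, 7.15% and 4.69% of all genes. The causes were not tested. None of the genes that passed had an adjusted p under 0.05 in these fits (limma voom). In the order per kb, 3 neighbours differed in every sample when all 13 samples were used, against 5 in the 6 controls. Neighbours with an adjusted p under 0.05 in the exact test numbered 6 against 5, and the limit on these p-values given above holds here too. No paired analysis was possible because the animal numbers of the groups differ.

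Both the spread between males and depth limit these comparisons: counting error would give an SD on the log2 scale of 0.02 for *Aldh1a1* but 0.10 to 0.13 for *Aldh1a3*, *Rdh10* and *Cyp26a1*, whose observed SDs are 0.12 to 0.24. The sort leaves germ cell transcripts in the samples, the methods do not tell how transcripts were summed, and RNA levels were measured, not enzyme activity or retinoic acid.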
